A study of Mus musculus with 7 samples.

Results

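The eukaryotic initiation factor (eIF) genes were examined in LSK cells, the Lin-negative, Sca-1-positive, Kit-positive fraction of mouse bone marrow that holds blood stem cells and multipotent progenitors. Members were all rows whose identifier maps to a protein-coding symbol that begins with Eif and a digit, outside chromosomes X and Y. This gave 52 genes of the 39179 in the table, and 49 of them passed the filter on low values. Cells were sorted from mice 7 weeks old, of the strain given as C57/BL6. Both groups carry the Vav1Cre transgene, which drives Cre recombinase in blood cells: 4 control libraries carry Vav1Cre alone, and 3 Jmjd1c libraries carry it with a floxed Jmjd1c gene, which encodes a histone demethylase of the KDM3 family. Separate animals are not stated in the labels. The p-values therefore measure the spread among 7 libraries, part of which may be technical.

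Initiation places a ribosome on the start codon of an mRNA. eIF2 carries the initiator tRNA to the small ribosomal subunit, eIF2B recharges eIF2 with GTP, and the eIF2 kinases slow this recharging under stress. eIF3 is the large scaffold on the small subunit, eIF4E binds the mRNA cap, eIF4G bridges cap and ribosome, and eIF4A unwinds the leader. eIF5 triggers GTP hydrolysis at the start codon, eIF5B joins the subunits, and eIF6 keeps free large subunits apart. Blood stem cells are known for a low rate of protein synthesis, which makes the initiation machinery a point of interest in them.

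Values are numbers of reads per gene, scaled by each library's size factor, and are given as normalized read counts. The targeted gene, Jmjd1c (ENSMUSG00000037876, chromosome 10, 67096125 to 67256326, plus strand, GRCm38) was at 458, 466, 516 and 512 in controls 1 to 4 and at 294, 244 and 254 in Jmjd1c 1 to 3. The groups did not overlap (log2 fold change -0.89 ± 0.09 SE, limma adjusted p = 0.00407; two-sided exact permutation p = 0.0286, the smallest that 35 splits allow). Reads in genes ranged from 4303712 to 6436519 per library. All 10 stem and progenitor markers on a list (Kit, Ly6a, Cd34 and others) were detected, and they summed to 25761 to 30147 in the control and 26725 to 30298 in the Jmjd1c libraries.

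Some lists of other cell types differed between the groups. The 7 basophil and mast cell markers summed to 5883 to 9128 in control and 2627 to 4992 in Jmjd1c libraries, and 1 of them was called lower in limma. Prss34 made up most of this sum, at 4421 to 6828 against 1601.5 to 3409. Mcpt8 and Cyp11a1 were also lower without overlap. Cpa3, Fcer1a and Ms4a2 overlapped, and Gata2 went the other way, at 203 to 326 against 322 to 431. The 8 mature neutrophil markers summed to 9646 to 13014 against 6652 to 9591, with 0 of 7 tested called. In the list of plasma and B cells, 10 genes summed to 19279 to 29269 against 10147 to 30312. The 11 macrophage markers summed to 12733 in control 4 against 2948 to 5193 in the other six libraries. Sums of T and NK cell markers (9 genes) and of erythroid markers (8 genes) overlapped between the groups, and no marker on any list was at 0 in all libraries. Their part in the results that follow was not tested, and in bulk RNA fewer cells of a type and less RNA per cell cannot be told apart.

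One pair of related genes outside the members bears on the libraries. Eif2s3y, the Y-linked gene for the eIF2 gamma subunit, was at 427 to 627 in the control libraries, 393 in Jmjd1c 1 and 470 in Jmjd1c 2, but at 0 in Jmjd1c 3. Its X-linked copy Eif2s3x was at 177 in Jmjd1c 3 against 116 to 146 in the other libraries. The labels give no sex. Jmjd1c 3 therefore stands apart, and values without it are given for the risen genes and for Eif2ak4, Eif3f, Eif4ebp1, Eif6, Ppp1r15a, Akt1s1 and Dohh.

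Of the 49 tested members, 5 rose in Jmjd1c libraries and 0 fell in limma at an adjusted p under 0.05, and 44 did not pass. The risen genes encode the catalytic epsilon subunit of eIF2B (Eif2b5), the eIF3 subunit b (Eif3b), the eIF4F scaffold eIF4G1 (Eif4g1), the helicase cofactor eIF4H (Eif4h) and the GTPase-activating factor eIF5 (Eif5). Among all 12813 tested genes, 1.8% were called: 1.51% higher and 0.289% lower, against 10.2% of the members, all of them higher. At an unadjusted p under 0.05 there were 9 members (18.4%) against 19.7% of all tested genes. The members' median log2 fold change was 0.06, with 30 values above 0 and 19 below, against a median of -0.01 over all tested genes. In 14 members (28.6%) the groups did not overlap, as in 16.8% of all tested genes. Of these, 10 were higher in Jmjd1c and 4 lower, against a background of 9.74% and 7.1% of all tested genes. edgeR on the recovered reads called the same 5 members, against a background of 1.82% of genes (1.54% higher, 0.281% lower). DESeq2 called these with Eif4a1 higher and Eif4a2 lower, against a background of 5.21% (4.18% higher, 1.03% lower).

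**Figure D1:**
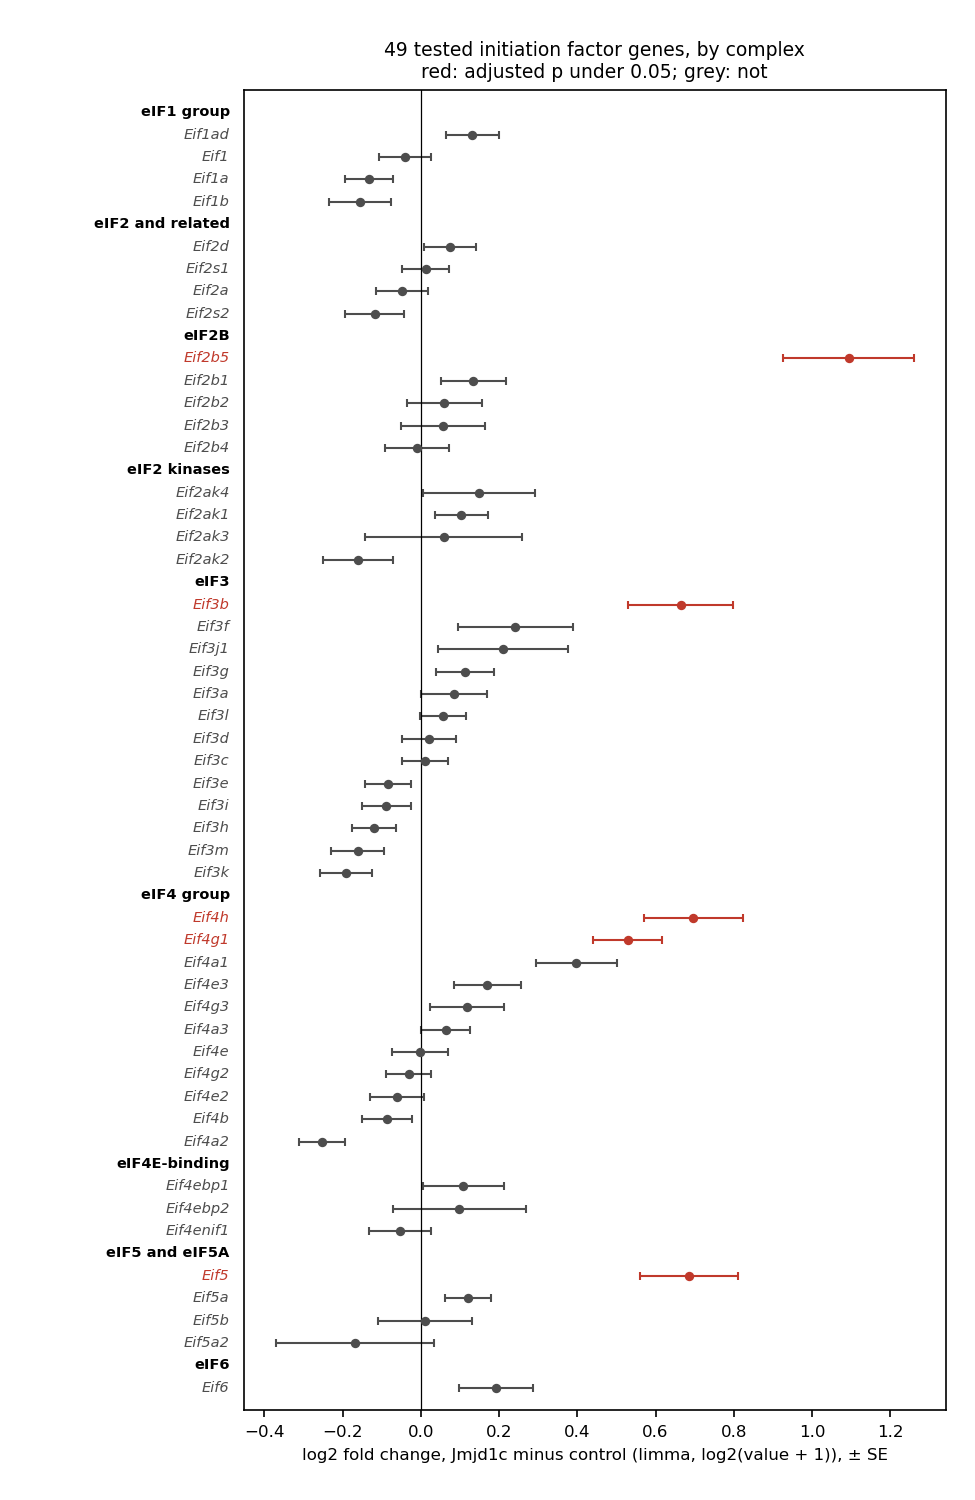
Log2 fold change (x axis, Jmjd1c minus control, limma on log2(value + 1), error bars SE) of the 49 tested initiation factor genes, grouped by complex. The 5 genes with adjusted p under 0.05 (red) lie between 0.53 and 1.09, and the 44 others (grey) between -0.25 and 0.40.

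The calls depended on the variance model and on single libraries. limma without its intensity trend called 0 members and 0 genes in all, with a smallest adjusted p of 0.145 among members. In that fit 7 of 49 members and 2213 of 12813 genes had an unadjusted p under 0.05. No member was called without each of control 2, control 3, Jmjd1c 2 and Jmjd1c 3 in turn, and of all tested genes 3 to 9 were called in these fits. An unadjusted p under 0.05 in limma was then reached by 8 or 9 of 49 members. Over all 12813 genes it was reached by 2257, 1947, 1683 and 1750 in these fits, in that order. Eif2b5 alone was called without control 1. Without Jmjd1c 3 the log2 fold changes were 0.91 for Eif2b5, 0.64 for Eif3b, 0.45 for Eif4g1, 0.54 for Eif4h and 0.55 for Eif5. Eif2b5, Eif4g1, Eif4h and Eif5 increased in the order Jmjd1c 1, 2 and 3, whereas Eif3b was highest in Jmjd1c 2. The calls come from the same libraries and share this order in part, so they are not independent of one another.

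The start regions of the 5 risen genes are shown because these genes rose together. Each line is 120 bases of mouse sequence from the RefSeq promoter table (GRCm38.p6), 5′ to 3′ on the gene's strand. They are the bases nearest before the RefSeq start that lie in no GENCODE M21 exon. For Eif4g1 this RefSeq start lies inside the GENCODE gene, which begins at 20668313. Capitals mark matches, on either strand, to any of 5 motifs searched: CACGTG (E-box), ACTTCCGG (ETS core), GCGC followed by any 2 bases and GCGC (NRF1-like), CCAAT and TGATGNAA (ATF4-like).
Eif2b5, chr16:20498697-20498816, plus strand: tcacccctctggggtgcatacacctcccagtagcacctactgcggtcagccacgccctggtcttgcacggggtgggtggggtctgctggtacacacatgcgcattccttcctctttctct
Eif3b, chr5:140419185-140419304, plus strand: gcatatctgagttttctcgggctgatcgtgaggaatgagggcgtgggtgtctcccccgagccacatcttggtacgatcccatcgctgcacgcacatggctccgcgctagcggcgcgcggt
Eif4g1, chr16:20672603-20672722, plus strand: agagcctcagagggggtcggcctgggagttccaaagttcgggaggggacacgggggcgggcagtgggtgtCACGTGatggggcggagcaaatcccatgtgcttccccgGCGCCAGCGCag
Eif4h, chr5:134639491-134639610, minus strand: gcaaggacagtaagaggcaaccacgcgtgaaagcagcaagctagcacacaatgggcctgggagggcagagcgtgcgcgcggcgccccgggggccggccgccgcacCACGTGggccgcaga
Eif5, chr12:111537896-111538015, plus strand: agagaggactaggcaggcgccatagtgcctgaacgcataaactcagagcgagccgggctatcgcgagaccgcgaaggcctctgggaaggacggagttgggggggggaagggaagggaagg

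No motif of the search was shared by all 5 genes. In windows from 250 bases before to 50 after the start, the E-box was in Eif4h (at -96) and Eif4g1 (at -54 and 15), and the NRF1-like motif was in Eif4g1 (at -16). CCAAT was in Eif2b5 (at -164) and Eif5 (at 5 and 37), and the Eif3b window held none of the motifs. Over the 53 windows of the 40 tested members that the table holds, the E-box was in 22.6%, against 7.15% of all 32851 windows. The ETS core was in 18.9% of member windows against 3.89%, and the NRF1-like motif in 20.8% against 6.23%. CCAAT was in 28.3% against 37.4%, and the ATF4-like motif in 0 member windows against 3.97%. Member windows were richer in GC (median 62.3%) than all windows (52.7%), and windows of a single gene can overlap. The member windows are those of tested genes, whereas the 32851 windows were not limited to tested genes, so the 2 sets are unlike in expression as well. A match is a stretch of letters, not a measured binding site.

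eIF2B is the exchange factor that recharges eIF2. Eif2b5 (ENSMUSG00000003235, chromosome 16, 20498817 to 20509323, plus strand) encodes its catalytic subunit. It was at 95.2, 101, 89.7 and 101 normalized read counts in controls 1 to 4 and at 153, 218 and 268 in Jmjd1c 1 to 3. Every Jmjd1c library lay above every control library, and the Jmjd1c libraries differed more among themselves than the controls did. The mean rose from 96.9 ± 5.62 (SD, n = 4) to 213 ± 57.5 (SD, n = 3), or by 1.09 ± 0.17 on the log2 scale (limma adjusted p = 0.0292). Without each library in turn the log2 fold change was 0.91 to 1.31, and adjusted p ran from 0.0036 to 0.175.

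The 4 other eIF2B subunits did not pass. Eif2b1, the alpha subunit of the regulatory part, was at 493, 436, 429 and 414 in controls and 503, 450 and 504 in Jmjd1c libraries. Eif2b2, the beta subunit, was at 291, 371, 315 and 340 against 318, 353 and 356. In each of these genes the groups overlapped. Eif2b3, the gamma partner of the catalytic subunit, was at 346, 256, 283 and 271 against 286, 303 and 308. Eif2b4, the delta subunit, was at 371, 372, 431 and 404 against 394, 377 and 403. Their log2 fold changes lay between -0.01 (Eif2b4) and 0.13 (Eif2b1). Within a library, Eif2b5 was 0.246 to 0.284 of the mean count of the 4 other subunits in controls and 0.408, 0.589 and 0.682 of it in Jmjd1c 1 to 3. This ratio is a description of counts, with no test.

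eIF2 itself showed no called member. Eif2s1, the alpha subunit that the kinases phosphorylate, was at 1598, 1570, 1492 and 1573 in controls and 1592, 1632 and 1492 in Jmjd1c libraries (log2 fold change 0.01 ± 0.06, limma adjusted p = 0.929). Eif2s2, the beta subunit, was at 715, 718, 800 and 771 against 724, 635 and 719 (-0.12 ± 0.07, limma adjusted p = 0.404; -0.06 without Jmjd1c 2). Both overlapped between the groups. Eif2a and Eif2d, which can bring initiator tRNA to the ribosome without eIF2, had log2 fold changes of -0.05 and 0.07 and did not pass.

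The 4 eIF2 kinases did not pass either. Eif2ak1, the heme-regulated kinase HRI, was at 514, 511, 522 and 494 in controls and 576, 542 and 527 in Jmjd1c libraries. Eif2ak2, the kinase PKR that senses double-stranded RNA, was at 346, 343, 365 and 424 against 329, 336 and 324. For Eif2ak1 every Jmjd1c value was above every control value and for Eif2ak2 below, with log2 fold changes of 0.10 ± 0.07 and -0.16 ± 0.09 (limma adjusted p = 0.420 and 0.347). Eif2ak2 had -0.09 without control 4, the library with the high macrophage marker sum, and Eif2ak1 had 0.07 without Jmjd1c 1. Eif2ak3, the endoplasmic reticulum kinase PERK, was at 40.0, 51.9, 33.8 and 42.0 against 50.5, 41.2 and 38.7. Eif2ak4, the amino acid sensor GCN2, was at 109, 94.1, 101 and 87.4 against 90.2, 116 and 121. Both overlapped, with log2 fold changes of 0.06 ± 0.20 and 0.15 ± 0.14 (limma adjusted p = 0.900 and 0.601). Eif2ak4 had 0.07 without Jmjd1c 3 and 0.28 without Jmjd1c 1. Per kilobase of merged exons, Eif2ak1 was the most abundant kinase in controls at 90.0 normalized read counts, followed by Eif2ak2 at 72.3, Eif2ak4 at 13.1 and Eif2ak3 at 6.96.

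**Figure D2:**
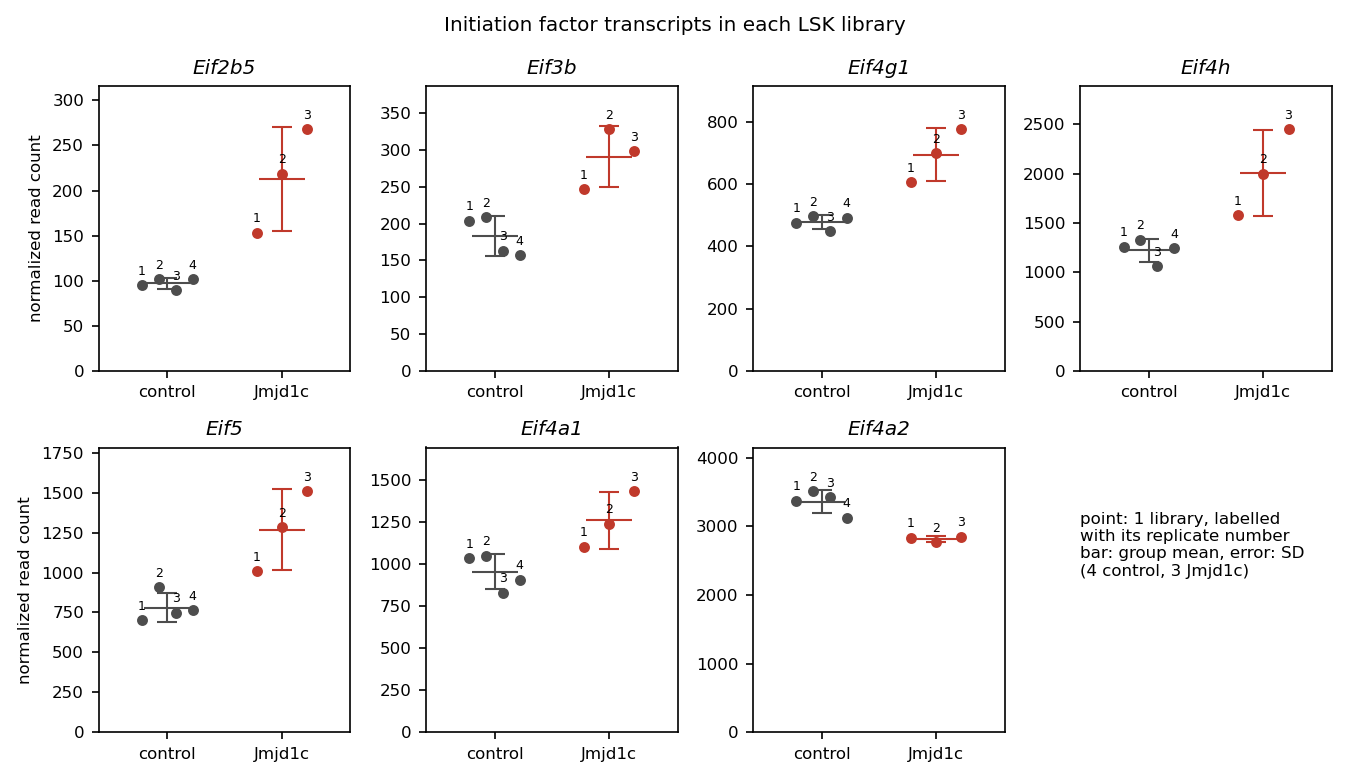
Normalized read counts (y axis, from 0) of the 5 risen members and of Eif4a1 and Eif4a2 in each of 4 control (grey) and 3 Jmjd1c (red) libraries, numbered by replicate, with group means and SD. For each of the 7 genes the groups do not overlap, and Eif4a2 is the gene that is lower in Jmjd1c.

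In eIF3, 1 of 13 tested subunits rose, 0 fell and 12 did not pass. Eif3b (ENSMUSG00000056076, chromosome 5, 140419328 to 140443360, plus strand), which encodes a core scaffold subunit, was at 204, 209, 163 and 157 in controls and 247, 328 and 298 in Jmjd1c libraries. All Jmjd1c values were above all control values, with Jmjd1c 1 nearest to them. The mean rose from 183 ± 26.8 to 291 ± 41.0 (log2 fold change 0.66 ± 0.13, limma adjusted p = 0.0386), and the log2 fold change was 0.57 to 0.78 without each library in turn. After a correction for transcript GC content and length it was 0.54 and was not called (limma, adjusted p = 0.0787).

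The other eIF3 subunits fell on both sides of 0. Eif3f, which encodes an MPN-domain subunit, had the next highest log2 fold change at 0.24 ± 0.15, with 229 in Jmjd1c 3 against 146 and 179 in Jmjd1c 2 and 1 and 138 to 167 in controls. It was 0.08 without Jmjd1c 3. The lowest value was that of Eif3k at -0.19 ± 0.07 (1785 to 2049 in controls, 1616 to 1804 in Jmjd1c libraries), followed by Eif3m at -0.16 ± 0.07, whose sign turned with GC content and length corrected for, to 0.02. Eif3h was at 2729 to 2839 in controls and 2477 to 2682 in Jmjd1c libraries without overlap (-0.12 ± 0.06, limma adjusted p = 0.258). Eif3a, which encodes the largest subunit, had 0.08 ± 0.09, and Eif3c, Eif3d, Eif3e, Eif3g, Eif3i, Eif3j1 and Eif3l lay between -0.09 and 0.21. Eif3j2, a near copy of Eif3j1, was at 0 to 6.18 and did not pass the filter, and reads of such copies cannot be assigned with certainty.

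Per kilobase of merged exons, the eIF3 subunit genes differed widely in level although their products share a complex. In control libraries Eif3h averaged 1726 normalized read counts per kilobase. Eif3k, Eif3c and Eif3l followed at 723, 677 and 659. Eif3b at 54.8 and Eif3f at 53.2 were the lowest of the 13 tested subunit genes apart from Eif3j1 at 9.79. In Jmjd1c libraries Eif3b averaged 86.9 per kilobase, which left it above Eif3f at 63.9 and below Eif3a at 172. Merged exons can hold rarely used exons, which lowers a value per kilobase.

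**Figure D3:**
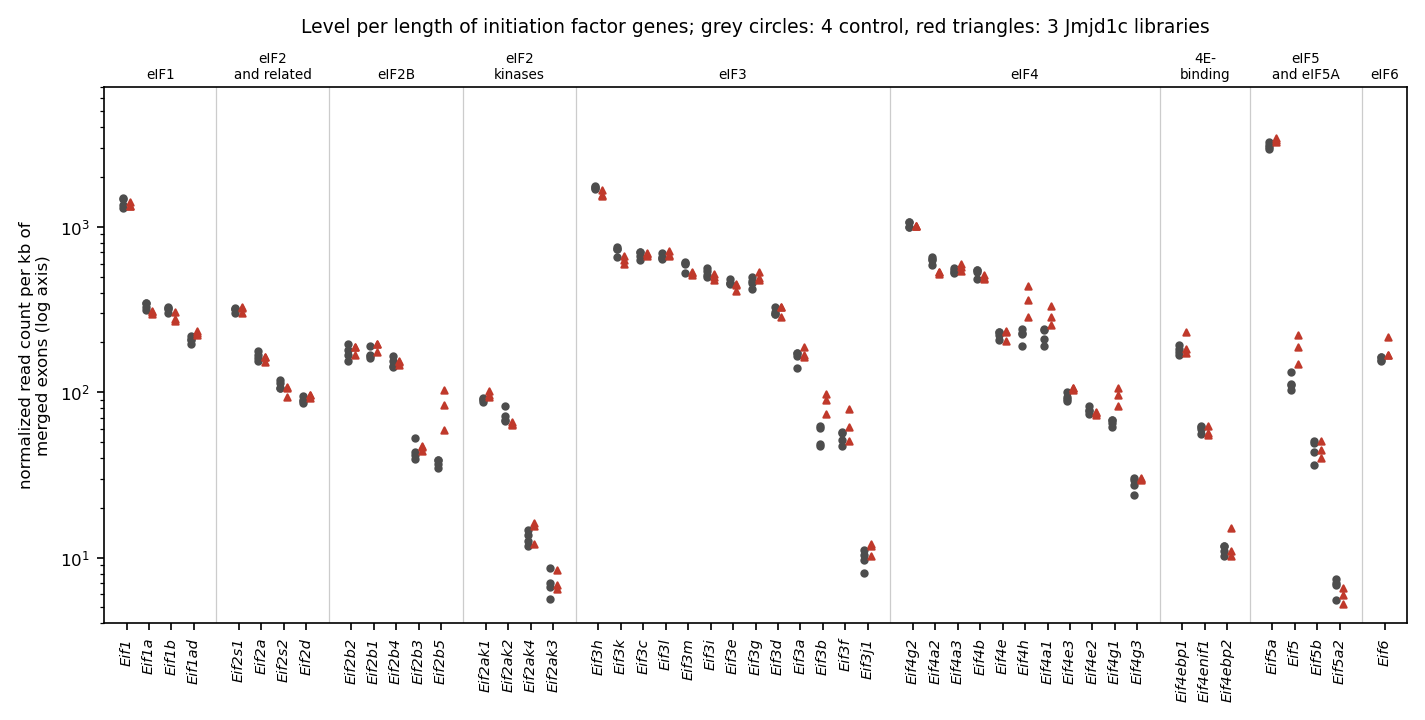
Normalized read count per kilobase of merged exons (y axis, log scale) of the 49 tested members in each of 4 control (grey circles) and 3 Jmjd1c (red triangles) libraries, ordered within each complex by the control mean. Eif5a at 3099 and Eif3h at 1726 have the highest control means, and Eif5a2 at 6.68 and Eif2ak3 at 6.96 the lowest.

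Among the 11 tested genes of the eIF4 group, 2 rose, 0 fell and 9 did not pass. Eif4g1 (ENSMUSG00000045983, chromosome 16, 20668313 to 20692884, plus strand), the scaffold that joins eIF4E, eIF4A, eIF3 and the poly(A)-binding protein, was at 477, 497, 449 and 492 in controls. It was at 607, 701 and 776 in Jmjd1c libraries, all above the controls. The mean rose from 479 ± 21.8 to 694 ± 84.9 (log2 fold change 0.53 ± 0.09, limma adjusted p = 0.0317; 0.45 to 0.62 without each library in turn). Its paralog Eif4g3 was at 263 to 335 in controls and 328 to 334 in Jmjd1c libraries (0.12 ± 0.09, limma adjusted p = 0.516; 0.05 without control 2). Eif4g2, which encodes a relative that lacks the eIF4E-binding part, had the highest count of all members, 10118 to 10902 in controls and 10226 to 10356 in Jmjd1c libraries, and did not pass (-0.03 ± 0.06, or 0.08 after quantile normalization).

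Eif4h (ENSMUSG00000040731, chromosome 5, 134619721 to 134639490, minus strand) encodes a small RNA-binding protein that stimulates the eIF4A helicase. It was at 1262, 1332, 1059 and 1243 in controls and 1578, 2000 and 2449 in Jmjd1c libraries. The groups did not overlap, and Jmjd1c 3 was the highest library. The mean rose from 1224 ± 116 to 2009 ± 436 (log2 fold change 0.70 ± 0.13, limma adjusted p = 0.0343), and the log2 fold change was 0.54 to 0.86 without each library in turn. Eif4b, which encodes the other stimulator of eIF4A, was at 2152 to 2454 in controls and 2175 to 2288 in Jmjd1c libraries (-0.09 ± 0.06, limma adjusted p = 0.472).

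The eIF4A helicase paralogs differed in direction, and neither passed. Eif4a1 (chromosome 11, 69666936 to 69672423, minus strand) was at 1034, 1050, 830 and 908 in controls and 1103, 1241 and 1435 in Jmjd1c libraries (log2 fold change 0.40 ± 0.10, limma adjusted p = 0.0706). Eif4a2 (chromosome 16, 23107444 to 23114136, plus strand) was at 3369, 3513, 3424 and 3123 against 2832, 2767 and 2848 (-0.25 ± 0.06, limma adjusted p = 0.0538). In neither gene did the groups overlap. The ratio of Eif4a1 to Eif4a2 counts was 0.242 to 0.307 in controls and 0.389, 0.448 and 0.504 in Jmjd1c 1 to 3, given as a description with no test. With GC content and length corrected for, Eif4a1 had 0.43 and Eif4a2 had -0.12. Exons of both genes overlap small nucleolar RNA genes, and those of Eif4a2 overlap Rfc4 on the opposite strand. Of the risen members, Eif5 shares 127 exon bases with Snora28 and Eif4g1 shares 1 with Snord66, and Eif2b5, Eif3b and Eif4h share none with another gene. Elsewhere, exons on the opposite strand cover 43.3% of Eif3d (Gm17638), 19.0% of Eif3j1 (Spg11), 16.9% of Eif5b (Rev1), 15.3% of Eif1ad (Banf1) and 12.7% of Eif1b (D830035M03Rik), and Gm20696 on the same strand covers 14.8% of Eif4e3. Whether the counting used strand is not given in the sources used here, so reads of such pairs cannot be told apart.

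No cap-binding member passed. Eif4e, the cap-binding protein gene, was at 1398, 1330, 1244 and 1395 in controls and 1405, 1391 and 1225 in Jmjd1c libraries, with means of 1342 ± 72.5 and 1340 ± 100 (log2 fold change -0.0027 ± 0.07, limma adjusted p = 0.988). Eif4e2, a cap-binding repressor, had -0.06, and Eif4e3 was at 222 to 254 in controls and 258 to 267 in Jmjd1c libraries (0.17 ± 0.09, limma adjusted p = 0.30). Eif4a3, a helicase of the exon junction complex, had 0.06 and did not pass. Eif4e1b was at 0 in every library and is not described further.

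The eIF4E-binding proteins block eIF4E until mTORC1 phosphorylates them. Eif4ebp1 was at 426, 399, 382 and 368 in controls and 400, 377 and 506 in Jmjd1c libraries (log2 fold change 0.11 ± 0.10, limma adjusted p = 0.596). Eif4ebp2 was at 59.2, 67.6, 67.6 and 63.0 against 58.8, 87.6 and 63.4 (0.10 ± 0.17, limma adjusted p = 0.787). Each had 1 high Jmjd1c library, and without it the log2 fold changes were -0.02 and -0.07. Eif4enif1, the shuttling partner of eIF4E, had -0.05, and Eif4ebp3 was at 0 to 0.874 and did not pass the filter.

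Eif5 (ENSMUSG00000021282, chromosome 12, 111538016 to 111546752, plus strand) was at 700, 908, 749 and 765 in controls and 1007, 1285 and 1510 in Jmjd1c libraries. All Jmjd1c values were above the highest control value, that of control 2. The mean rose from 781 ± 89.1 to 1267 ± 252 (log2 fold change 0.69 ± 0.13, limma adjusted p = 0.0343), and the log2 fold change was 0.55 to 0.84 without each library in turn. Eif5b, the subunit-joining GTPase, was at 354 to 491 against 390 to 493 (0.01 ± 0.12). Eif5a, whose hypusine-modified product relieves stalled ribosomes, was at 7784, 7205, 7029 and 7445 in controls and 7779, 8021 and 8202 in Jmjd1c libraries (0.12 ± 0.06, limma adjusted p = 0.287). Its low paralog Eif5a2, at 26.5 to 37.3 over all libraries, had -0.17 ± 0.20, or -0.09 without Jmjd1c 1.

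Eif6 was at 421, 443, 415 and 443 in controls and 451, 455 and 579 in Jmjd1c libraries. The groups did not overlap, but Jmjd1c 1 and 2 lay close to the controls, and the log2 fold change was 0.19 ± 0.09 (limma adjusted p = 0.287), or 0.07 without Jmjd1c 3. In the eIF1 group none of 4 members passed. eIF1 and eIF1A help select the start codon, and Eif1ad is placed with their genes here by its symbol only. Eif1 had -0.04 ± 0.07, Eif1a -0.13 ± 0.06, Eif1b -0.16 ± 0.08 and Eif1ad 0.13 ± 0.07. Eif1a was lower and Eif1ad higher in every Jmjd1c library than in any control library, but Eif1a had 0.0037 with GC content and length corrected for.

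Position and base composition were not used to choose the members. Eif2b5 and Eif4g1 lie on the same strand of chromosome 16 with their annotated starts 169 kb apart. Of the 6 tested genes between them, 0 passed in limma, and their log2 fold changes ran from -0.16 (Abcf3) to 0.39 (Dvl3), with a median of 0.09. For Alg3 and Psmd2 among these the groups did not overlap, with log2 fold changes of 0.31 and 0.12. The 5 risen members had a median transcript GC content of 54.2%, against 49.7% for the 44 members that did not pass and 49.4% for all tested genes. Eif5, at 41.7%, was below all of these medians. Over all tested genes, those called higher had a median GC content of 55.4%. Corrected for GC content and length, Eif2b5 (1.05), Eif5 (0.77), Eif4h (0.59) and Eif4g1 (0.39) were still called in limma, against a background of 0.576% of genes (0.442% higher, 0.134% lower).

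Partners of the initiation factors were taken from lists of 55 genes in the table, of which 50 autosomal genes were tested. Of these, 2 rose, 0 fell and 48 did not pass, with a median log2 fold change of 0.08, against 1.8% called and 1.51% called higher over all tested genes. Pabpc1, the main poly(A)-binding protein, which contacts eIF4G, was at 2980, 2737, 2316 and 2379 in controls and 3393, 3805 and 4534 in Jmjd1c libraries (0.58 ± 0.11, limma adjusted p = 0.0343). Gcn1l1, whose product GCN1 activates the kinase GCN2 on ribosomes, was at 299, 264, 234 and 231 against 324, 444 and 459 (0.66 ± 0.13, limma adjusted p = 0.0386). In both genes every Jmjd1c value was above every control value. The call on Gcn1l1 did not hold with GC content and length corrected for (0.30, limma adjusted p = 0.151). Neither gene was called without each of control 2, control 3, Jmjd1c 2 and Jmjd1c 3 in turn.

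**Figure D4:**
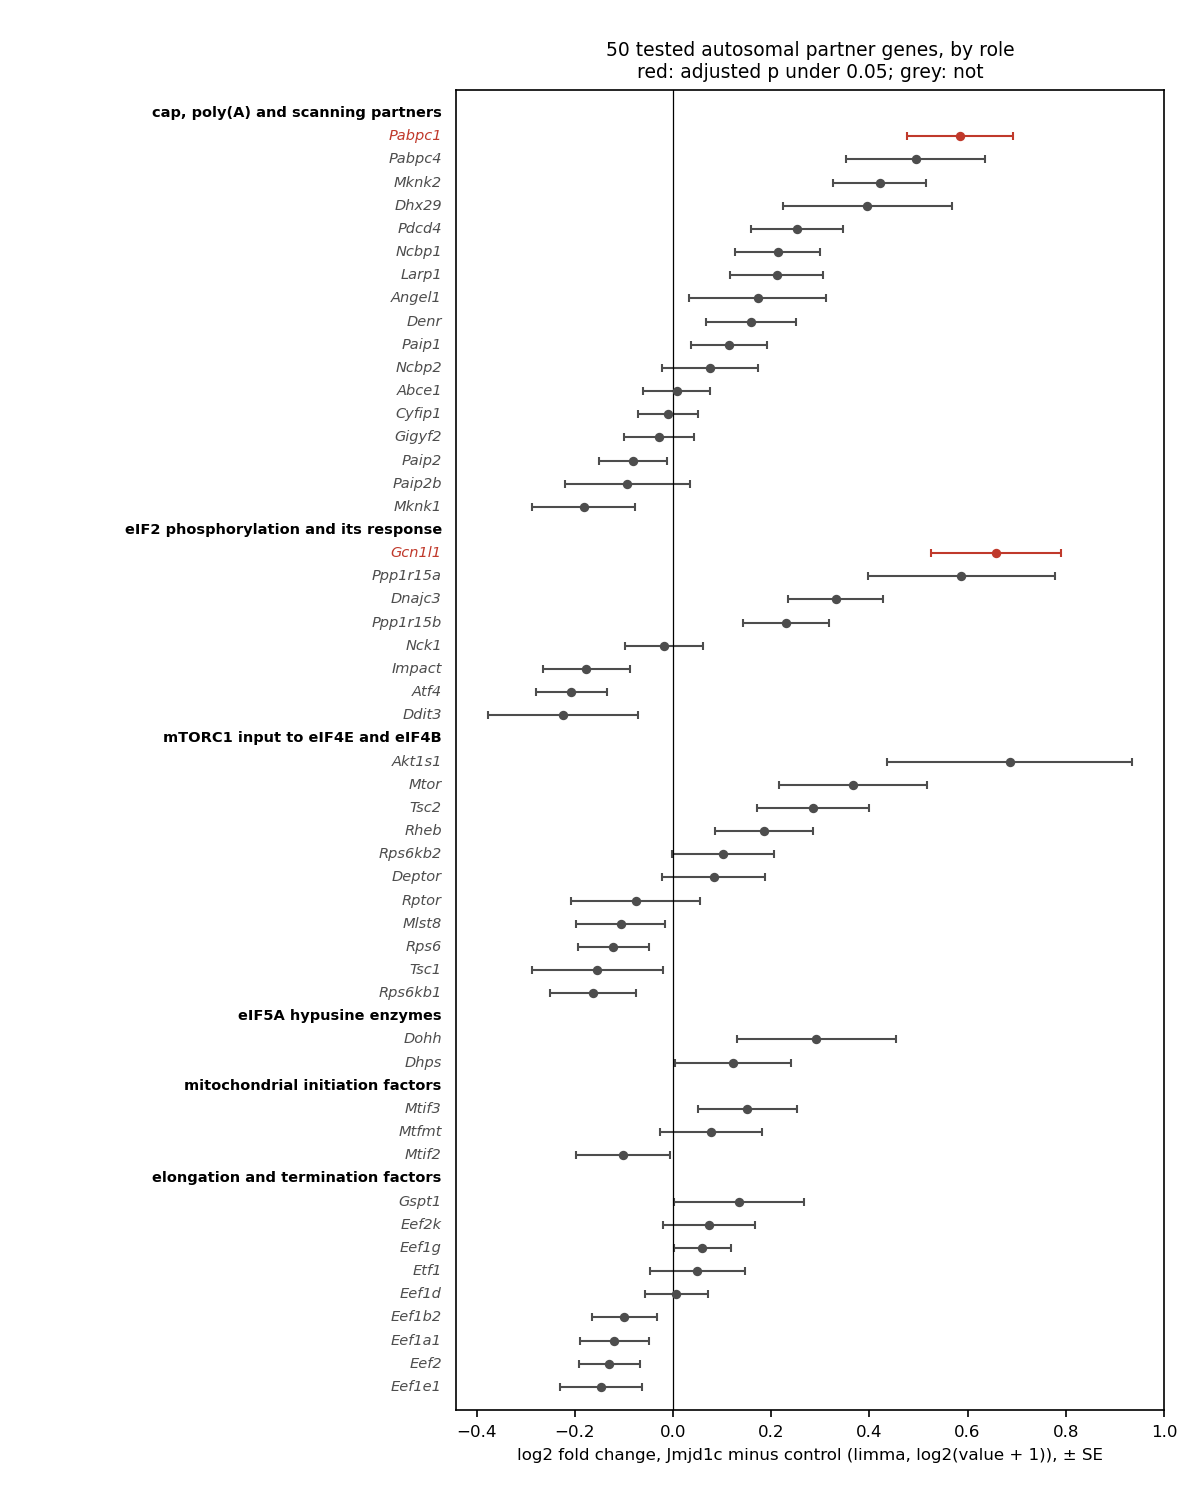
Log2 fold change (x axis, Jmjd1c minus control, limma on log2(value + 1), error bars SE) of the 50 tested autosomal partner genes, grouped by role. Pabpc1 at 0.58 and Gcn1l1 at 0.66 (red) have an adjusted p under 0.05, and the 48 others (grey) lie between -0.22 and 0.69.

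The other partners are given by role. Of 17 tested cap, poly(A) and scanning partners 16 did not pass. Mknk2, a kinase of eIF4E, had 0.42 ± 0.10 (limma adjusted p = 0.051) and the poly(A)-binding protein gene Pabpc4 had 0.49 ± 0.14 (adjusted p = 0.0939). Of 8 genes around eIF2 phosphorylation 7 did not pass. Ppp1r15a, the inducible subunit of the eIF2 phosphatase, was at 127 to 155 in controls and at 169, 180 and 312 in Jmjd1c libraries (0.59 ± 0.19, limma adjusted p = 0.130; 0.31 without Jmjd1c 3). Atf4, the transcription factor translated when eIF2 is phosphorylated, was at 568 to 631 against 495 to 547 (-0.21 ± 0.07, limma adjusted p = 0.153). Dnajc3, whose product inhibits eIF2 kinases, was at 539 to 597 in controls and 602, 742 and 814 in Jmjd1c libraries (0.33 ± 0.10, limma adjusted p = 0.0973). These 5 genes were chosen after their values were seen.

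In the lists without a called gene, the smallest p-values were those of the genes named here. Among 11 genes of the mTORC1 input it was Akt1s1, an inhibitor of mTORC1 (0.69 ± 0.25, limma adjusted p = 0.167), with 129 in Jmjd1c 3 against 43.1 to 74.2 elsewhere and a log2 fold change of 0.36 without that library. Among the hypusine enzymes it was Dohh (0.29 ± 0.16), which had 0.15 without Jmjd1c 3 and 0.45 without Jmjd1c 1. Among 3 mitochondrial initiation factors it was Mtif3 (0.15 ± 0.10), with 0.24 without control 2 and 0.09 without control 3. The 9 tested autosomal elongation and termination factors lay between -0.15 and 0.13 with a median of 0.01. Eef2, which moves the ribosome along the mRNA, was at 13579 to 14935 in controls and 12711 to 13589 in Jmjd1c libraries (-0.13 ± 0.06, limma adjusted p = 0.281), and it had 0.02 after quantile normalization. Summed counts of whole complexes are given as a description, with no test. The eIF2B members summed to 1531 to 1597 in controls and 1654, 1702 and 1838 in Jmjd1c 1 to 3, and eIF5 with eIF5A to 8239 to 9004 against 9306, 9771 and 10135. Both sums, like that of Eif6 as the lone member of its group, were higher in every Jmjd1c library than in any control. The eIF2B sum holds the called member Eif2b5, and the eIF5 and eIF5A sum holds Eif5. In every other member of both, the control and Jmjd1c values overlapped. Mean counts went from 781 in controls to 1267 in Jmjd1c libraries for Eif5, and from 7366 to 8001 for the uncalled Eif5a, so the higher sum does not rest on Eif5 alone. For the other six groups the sums overlapped. The eIF3 members summed to 20001 to 20976 in controls and 19525 to 20346 in Jmjd1c libraries, and all 52 members to 62843 to 66504 against 65140 to 66704.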

How the data were processed

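RNA of sorted LSK cells was sequenced after cDNA synthesis with the SMARTer Ultra Low kit, per the labels' protocols. Per the submitters' processing notes, the authors used Trim Galore 0.2.8, STAR, HTSeq 0.6.1p1 and DESeq 1.18.0 with build mm10. Strand setting and annotation release: not given in the sources used here. The deposited signal values are reads per gene scaled by each library's size factor. Every value was a whole multiple of 1 read within 0.01 of a read, so reads could be recovered (4303712 to 6436519 per library). Every sample column was mapped to a sample.

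The 12813 genes that reached a value of 10 in 3 or more libraries were tested with limma 3.58.1 (intensity trend, R 4.3.3) on log2(value + 1), which understates changes of low genes. p-values were adjusted over all tested genes (Benjamini-Hochberg, two-sided, threshold 0.05). edgeR 4.0.16 and DESeq2 1.42.0 on the recovered reads, other scalings, filters and pseudocounts, a correction for transcript GC content and length, a replicate block and leaving out each library were alternatives. The deposited values, which are scaled and not whole counts, were the input of the main test. On simulated data of 12813 genes with this design, 38% of 1.5-fold and 71% of 2-fold changes were called, 7.63% of calls were on unchanged genes, and 0 genes were called where nothing changed. Each gene was simulated on its own, without differences between libraries that many genes share. These rates may therefore not hold for the real libraries.

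Symbols, positions and exons came from GENCODE M21 (GRCm38), which held 37607 of 39179 identifiers. Of 61 rows with a symbol of the family, 6 were not protein-coding and 3 were on X or Y. Members and lists were chosen with earlier results of these data known. Jmjd1c was named. Members past the threshold and a fixed list (the eIF2 kinases, eIF2B and eIF2 subunits, Eif4e, its binding proteins, Eif4g1, Eif4a1, Eif5a, Eif6) were given in every library. Other members were given by level, range or count. Called partners were named, or else the partner of smallest p in a list; Mknk2, Pabpc4, Ppp1r15a, Atf4, Dnajc3 and the genes between Eif2b5 and Eif4g1 were added after their values were seen. The labels do not state a pairing by replicate number, and the main test used none. No 2 libraries agreed within sampling noise.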

Additional observations from a re-analysis of the deposited data

How the results depend on the processing

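The 5 members remained called higher with pseudocounts of 0.5 and 10, no filter, a filter of 50, array weights, quantile normalization, TMM scaling, edgeR, DESeq2 and an adjusted p threshold of 0.1, and 4 of them with the correction for GC content and length. Their number was 0 without the intensity trend, with the replicate block, and with the block and the correction for GC content and length. In these fits 7, 7 and 10 of 49 members had an unadjusted p under 0.05 in limma. Over all genes the counts were 2213 and 1901 of 12813, and 1656 of 12677. Control 4 has no Jmjd1c library of its number, so the replicate block took its log2 fold changes from the other libraries. They equal those of the fit without control 4 (Eif2b5 1.12 in both), which used no block and called 5 members higher. The number of members called higher was 0 to 6 when each library was left out. The cause was not tested. Members called lower numbered 1 with a filter of 50, array weights, DESeq2 and the threshold of 0.1, and 0 to 1 when each library was left out. All genes called (231) numbered 0 without the trend, 590 in DESeq2, 14 with the block, 73 with the correction, 11 with both, 716 at the threshold of 0.1 and 3 to 624 when each library was left out. Partners called (2) numbered 0 without the trend, 5 in DESeq2, 0 with the block, 1 with the correction, 0 with both, 5 at the threshold of 0.1 and 0 to 4 when each library was left out. Jmjd1c had -0.89 with an adjusted p of 0.117 without the trend (limma) and -0.97 to -0.83 when each library was left out. Deviations from the group means correlated between same-numbered samples at -0.152, -0.0021 and 0.0174 for replicates 1 to 3. The labels do not say whether same-numbered samples were paired, and with so few libraries these correlations cannot tell.

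Of 1178 log2 fold changes of 59 genes, 1064 kept direction and call, 55 lost a call, 13 gained one and 46, of 18 uncalled genes, changed sign. The replicate block alone and the fit without control 4 gave the same log2 fold changes, and these are counted under both. With GC content and length corrected for, the changed values were Eif1 0.022, Eif1a 0.0037, Eif2a 0.076, Eif2s2 0.011, Eif3e 0.091, Eif3m 0.022, Eif4e 0.084, Eif4ebp2 -0.0058, Eif4g2 0.0028 and Eif4g3 -0.030. With the replicate block as well, they were Eif1 0.040, Eif2a 0.065, Eif2s2 0.0013, Eif3c -0.038, Eif3e 0.047, Eif3m 0.0018, Eif4e 0.087, Eif4ebp2 -0.015 and Eif4g3 -0.031. With the replicate block alone, they were Eif2b4 0.0025, Eif3c -0.021 and Eif4e 0.016. With quantile normalization they were Eif2s1 -0.0030, Eif4g2 0.082, Eif5b -0.010 and Eef2 0.019. With array weights they were Eif3c -0.00071 and Eif4e 0.025. When each library was left out, the ranges were -0.051 to 0.16 for Eif2ak3, -0.038 to 0.034 for Eif2b4, -0.015 to 0.049 for Eif2s1, -0.021 to 0.032 for Eif3c, -0.012 to 0.086 for Eif3d, -0.039 to 0.061 for Eif4e, -0.018 to 0.19 for Eif4ebp1, -0.073 to 0.21 for Eif4ebp2 and -0.087 to 0.094 for Eif5b. Depth limits the low members: Eif2ak3 rests on 170 reads over the control and 134 over the Jmjd1c libraries.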
